A study of Mus musculus with 1 sample.

Results

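The genes described here were 38 genes of antioxidant defence, glutathione metabolism and metal binding in mouse VM-derived mixed glia. They were chosen by name, as the rows whose gene symbol matched a fixed list, out of 23282 rows. The list was drawn up with earlier results of these data known. All 38 had a row. The list held 3 metallothioneins, 5 glutathione peroxidases, 6 peroxiredoxins, 6 glutathione transferases, 5 genes of the thioredoxin system, 4 genes for superoxide dismutases and catalase, 5 genes for the synthesis and recycling of glutathione, and 4 genes of Nrf2 control.

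The glia came from the ventral midbrain (VM) of ICR(CD-1) outbred mice aged 5 postnatal days, cultured as primary mixed cells in a study of inhibitors of the kinase SGK1. The data analysed here were 1 control RNA-seq library, whose column header joins mAst, which is not spelled out, with Cont and the solvent DMSO. Inhibitor-treated libraries were not analysed here, so no value below has a replicate, an error or a test. The cells were grown to near confluence in serum-containing medium, trypsinised and replated, and whether several pups were pooled was not given in the sources used here.

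Reactive oxygen species are removed in steps. Superoxide dismutases turn superoxide into hydrogen peroxide, which catalase, the glutathione peroxidases and the peroxiredoxins then reduce. For the glutathione peroxidases and peroxiredoxins, glutathione, a tripeptide thiol, and thioredoxin, a small dithiol protein, supply the electrons. Both thiols are recharged at the expense of NADPH. Glutathione transferases couple glutathione to reactive compounds. Metallothioneins are small proteins that hold zinc and copper on their cysteines. The transcription factor Nrf2, encoded by Nfe2l2, drives many of these genes and is held back by Keap1. In the brain, astrocytes are known as a main site of glutathione supply and of Nrf2 activity.

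The authors deposited a normalised read count for each gene, and all rows together summed to 27569507. To compare genes, each value was divided by the length of the gene's annotated exons and scaled so that all rows summed to 1000000. This quantity is called the level below. Genes whose value reached 10 were taken as detected. All 38 genes were detected, against 67.2% of all rows.

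The 3 metallothioneins had the highest levels of the 38 genes. By value, without division by length, Mt1 was highest, and Mt2 and Mt3 were at rank 7 and 8 of the 38, below Prdx6, Gpx4, Prdx1, Prdx5 and Gstm1. Their coding sequences are printed in full for their content of cysteine. Cysteine codons are in capitals. The sequences run from the start codon to the last codon before the stop and were read from the GENCODE principal transcripts on GRCm38.
Mt1: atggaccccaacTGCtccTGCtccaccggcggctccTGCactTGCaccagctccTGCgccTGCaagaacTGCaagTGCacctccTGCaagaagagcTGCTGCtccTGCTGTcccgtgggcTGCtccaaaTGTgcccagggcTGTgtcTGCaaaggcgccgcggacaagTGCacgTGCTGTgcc
Mt2: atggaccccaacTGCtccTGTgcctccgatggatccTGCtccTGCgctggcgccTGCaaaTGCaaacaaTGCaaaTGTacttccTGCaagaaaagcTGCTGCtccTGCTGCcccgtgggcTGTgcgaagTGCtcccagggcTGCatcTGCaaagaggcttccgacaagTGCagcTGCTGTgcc
Mt3: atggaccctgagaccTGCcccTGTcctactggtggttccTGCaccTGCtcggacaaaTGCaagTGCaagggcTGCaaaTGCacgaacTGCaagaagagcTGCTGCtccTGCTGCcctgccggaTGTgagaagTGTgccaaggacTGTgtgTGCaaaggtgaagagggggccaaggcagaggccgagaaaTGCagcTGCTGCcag

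Mt1 and Mt2 each had 61 codons and Mt3 had 68, and each of the 3 carried 20 cysteine codons. Cysteine took 32.8% of the codons of Mt1 and Mt2 and 29.4% of those of Mt3. These were the 3 highest cysteine shares among 14473 detected protein-coding rows, whose median was 1.91%. Over the aligned bases, the coding sequences of Mt1 and Mt2 were 79.2% identical, those of Mt2 and Mt3 74.9% and those of Mt1 and Mt3 73.2%. The antisense gene Gm45774, which overlaps Mt2 on the opposite strand, was not counted as a copy. Otherwise no stretch of 100 bases or more in another annotated transcript was at least 95% identical to any of the 3 genes. The 3 genes were thus not near-identical copies of each other.

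A further sequence feature of the 38 genes is the in-frame TGA codon, which is read as selenocysteine in place of a stop in selenoproteins. The stretches around it are shown with that codon in capitals. For Gpx7 and Gpx8, which belong to the same enzyme family, the codon aligned to the TGA of Gpx4 is in capitals.
Gpx1: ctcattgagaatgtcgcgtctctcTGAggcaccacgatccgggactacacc
Gpx3: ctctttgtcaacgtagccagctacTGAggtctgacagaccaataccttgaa
Gpx4: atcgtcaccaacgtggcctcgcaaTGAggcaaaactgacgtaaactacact
Gpx7: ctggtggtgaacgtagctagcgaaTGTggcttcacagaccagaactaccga
Gpx8: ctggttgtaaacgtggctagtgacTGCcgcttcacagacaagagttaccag
Txnrd1: ggagacatcctccagtctggctgcTGAggt
Txnrd2: ctggagcctactgtgactggttgcTGAggc

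An in-frame TGA was annotated in 5 of the 38 genes (13.2%), against 20 of 14473 detected protein-coding rows (0.138%). In Gpx1 it was codon 47, and in Gpx3 and Gpx4 it was codon 73. Gpx7 and Gpx8 had the cysteine codons TGT and TGC at the aligned position. In the thioredoxin reductases the TGA was the last codon but one, at codon 498 of 499 in Txnrd1 and codon 526 of 527 in Txnrd2. The 5 genes with a TGA held 15.4% of the summed level of the 38 genes, most of it in Gpx4 and Gpx1.

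The group as a whole sat in the upper part of the library. Its members were chosen with earlier results of these data known, and the relatives Mt4, Gpx2 and Gpx6, listed at 0, were outside it. The position of the group may in part follow from that choice, which was not tested. The median level of the 38 genes was 118, or 12.2 times the median of 9.65 over detected rows. A level above that median was found for 35 of the 38 genes, where 50% of detected rows lie above it by construction. A level over 100 was found for 21 of the 38 genes, against 8.66% of detected rows. Levels over 1000 were reached by 2 genes, Mt1 and Mt2, and 19 genes lay from 100 to 1000. A further 13 genes lay from 10 to 100, and 4 lay under 10, which were Gss, Txnrd2, Nqo1 and Gpx7. These counts depend on the length used. With the principal transcript as the length, Mt3 at 1337 and Gpx4 at 1027 also lay over 1000. Gss then lay over 10 at 20.5, and Gclm under 10 at 7.88. The highest level, that of Mt1, was 529 times the lowest, that of Gpx7. The 10 highest of the 38 genes held 79.1% of their summed level. In the deposited values, the 38 genes together made up 215720, or 0.782% of the library, and 1.22% of the summed level of all rows.

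**Figure D1:**
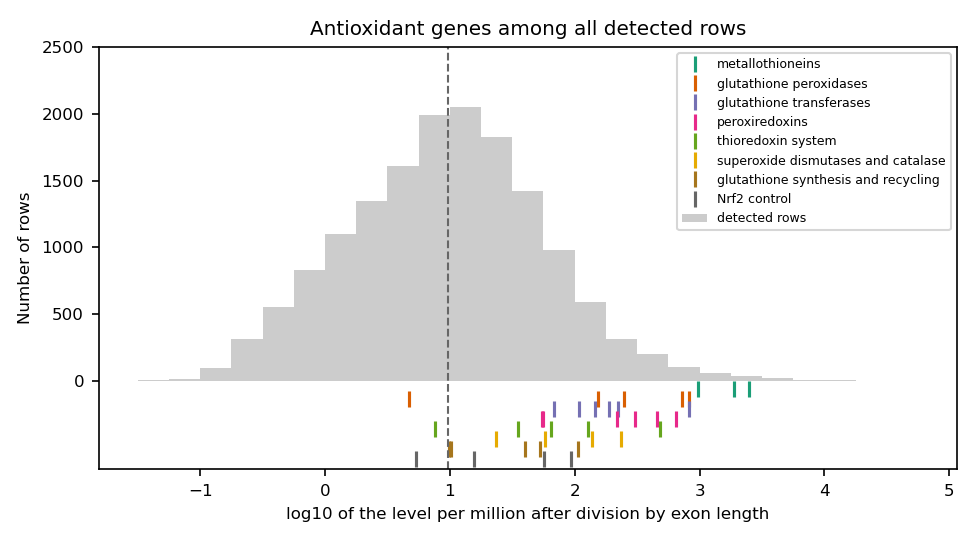
Grey bars count detected rows by the log10 of their level after division by exon length, and coloured ticks below them mark the 38 genes by role. The dashed line is the median of detected rows at a level of 9.65, and 35 of the 38 ticks lie to its right.

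The coding sequences of the 38 genes were also short. Their median was 222 codons against 461 for detected protein-coding rows, and 29 of the 38 lay under the latter. Their median exon length was 2376 bases against 4252.5 bases. Division by length therefore raised them relative to other genes, and without it their median value was 2988 against 469 for detected rows, a ratio of 6.37. By value 35 of the 38 genes again lay above the median of detected rows.

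Metallothioneins had the highest summed level of the 8 roles, 5359, which was 44.0% of the level of all 38 genes. Mt1 (chromosome 8, 94179082 to 94180327 on GRCm38) had a value of 32732 and a level of 2475, above 99.7% of detected rows. By value it was the row of rank 67 in the library. Mt2 (94172664 to 94173568) had a value of 11897 and a level of 1907. Mt3, known as the brain-enriched, growth-inhibitory metallothionein, lies at 94152607 to 94154146, and had a value of 11048 and a level of 977. The level of Mt1 was 1.30 times that of Mt2, and the level of Mt2 was 1.95 times that of Mt3. The annotated exon lengths of these genes include long transcript variants. With the principal transcript of each gene as the length, the level ratios were 2.56 and 1.13, and the order was kept. A total of 73.5% of the exon length of Mt2 is overlapped on the opposite strand by the antisense gene Gm45774, which had no row, and the strand setting of the counting is not given in the sources used here.

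The 3 genes lie side by side with another gene of the family, Mt4, in a stretch of 43131 bases on the plus strand of chromosome 8. Mt1 follows Mt2 after 5513 bases, Mt2 follows Mt3 after 18517 bases, and Mt3 follows Mt4 after 13575 bases. Mt4, known from stratified epithelium, was listed at 0. The cluster thus held the 3 highest of the 38 genes by level beside a gene listed at 0.

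Transcription of Mt1 and Mt2 is driven by the zinc sensor Mtf1 through metal response elements. The promoter windows of the 3 metallothionein genes in RefSeq are shown to let the spacing of that motif be seen. They run from 250 bases before to 50 bases after the annotated RefSeq start on GRCm38.p6. Capitals mark matches to the core TGCACNC or TGCGCNC on either strand.
Mt1, chr8:94178839-94179138, plus strand: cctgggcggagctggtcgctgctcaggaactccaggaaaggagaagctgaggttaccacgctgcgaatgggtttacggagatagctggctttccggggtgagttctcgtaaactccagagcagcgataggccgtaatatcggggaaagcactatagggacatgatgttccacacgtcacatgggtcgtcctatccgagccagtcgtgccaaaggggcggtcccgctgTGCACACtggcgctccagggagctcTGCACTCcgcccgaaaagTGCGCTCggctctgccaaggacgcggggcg
Mt2, chr8:94172368-94172667, plus strand: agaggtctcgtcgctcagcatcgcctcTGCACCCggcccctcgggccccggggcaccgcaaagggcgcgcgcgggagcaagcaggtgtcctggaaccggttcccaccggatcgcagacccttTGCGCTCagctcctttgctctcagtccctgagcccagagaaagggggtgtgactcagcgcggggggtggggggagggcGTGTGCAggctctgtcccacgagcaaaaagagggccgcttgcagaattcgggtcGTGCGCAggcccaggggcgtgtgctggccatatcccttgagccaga
Mt3, chr8:94152357-94152656, plus strand: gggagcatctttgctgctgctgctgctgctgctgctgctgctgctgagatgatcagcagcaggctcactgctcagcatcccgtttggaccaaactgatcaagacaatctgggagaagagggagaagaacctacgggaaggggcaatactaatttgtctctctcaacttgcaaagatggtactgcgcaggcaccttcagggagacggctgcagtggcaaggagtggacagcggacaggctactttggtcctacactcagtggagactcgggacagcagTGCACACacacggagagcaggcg

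The Mt2 window held 4 matches, the Mt1 window 3 and the Mt3 window 1. Counted from the annotated RefSeq start as position 0, matches began at -223, -128, -50 and 4 in Mt2, at -23, 2 and 20 in Mt1, and at 27 in Mt3. RefSeq starts can differ from the gene starts given above, which are from GENCODE. The Mt2 window, which ends at 94172667, reaches only just past the GENCODE start at 94172664. Of the promoters of 27025 genes, 28.2% held at least 1 match and 0.588% held 4 or more. A promoter was matched for 33 of the 38 genes, all but Prdx6, Gsta4, Sod3, Gsr and Gclc. These 33 genes had 40 windows, since 4 of them had several annotated starts, and a gene was counted when any of its windows held a match. At least 1 match was found in 12 of the 33 (36.4%), and 4 or more in Mt2 alone. Outside the metallothioneins, Gclm had the most matches, 3, at a level of 10.2. A match is a run of letters, and binding was not measured.

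The core of the antioxidant response element, through which Nrf2 acts, was searched as TGACNNNGC on both strands. It was found in 10 of the 33 genes (30.3%), against 14.0% of the promoters of 27025 genes. The 10 genes were Mt2, Prdx1, Sod1, Gstm5, Mgst1, G6pdx, Nfe2l2, Txnrd1, Srxn1 and Gclm. The match of Txnrd1 lay in 1 of its 3 windows. The levels of the 10 genes ran from 10.2 to 1907. Nqo1, a textbook Nrf2 target, had no match in its window. This core can overlap the AP-1 motif TGACTCA, and did so in Mt2 and Prdx1 alone of the 10, of which Prdx1 is shown here with the match in capitals.
Prdx1, chr4:116685349-116685648, plus strand: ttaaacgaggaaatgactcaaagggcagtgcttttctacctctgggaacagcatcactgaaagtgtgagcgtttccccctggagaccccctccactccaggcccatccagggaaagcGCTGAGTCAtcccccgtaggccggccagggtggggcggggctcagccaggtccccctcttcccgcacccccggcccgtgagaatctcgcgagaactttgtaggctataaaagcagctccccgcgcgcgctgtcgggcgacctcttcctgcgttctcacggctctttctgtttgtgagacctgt

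The windows of the 33 genes were also richer in CpG dinucleotides than promoters at large, with a median of 19 against 8, and in G and C, with medians of 60.7% and 53.3%. The part of these differences in the motif counts was not tested.

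**Figure D2:**
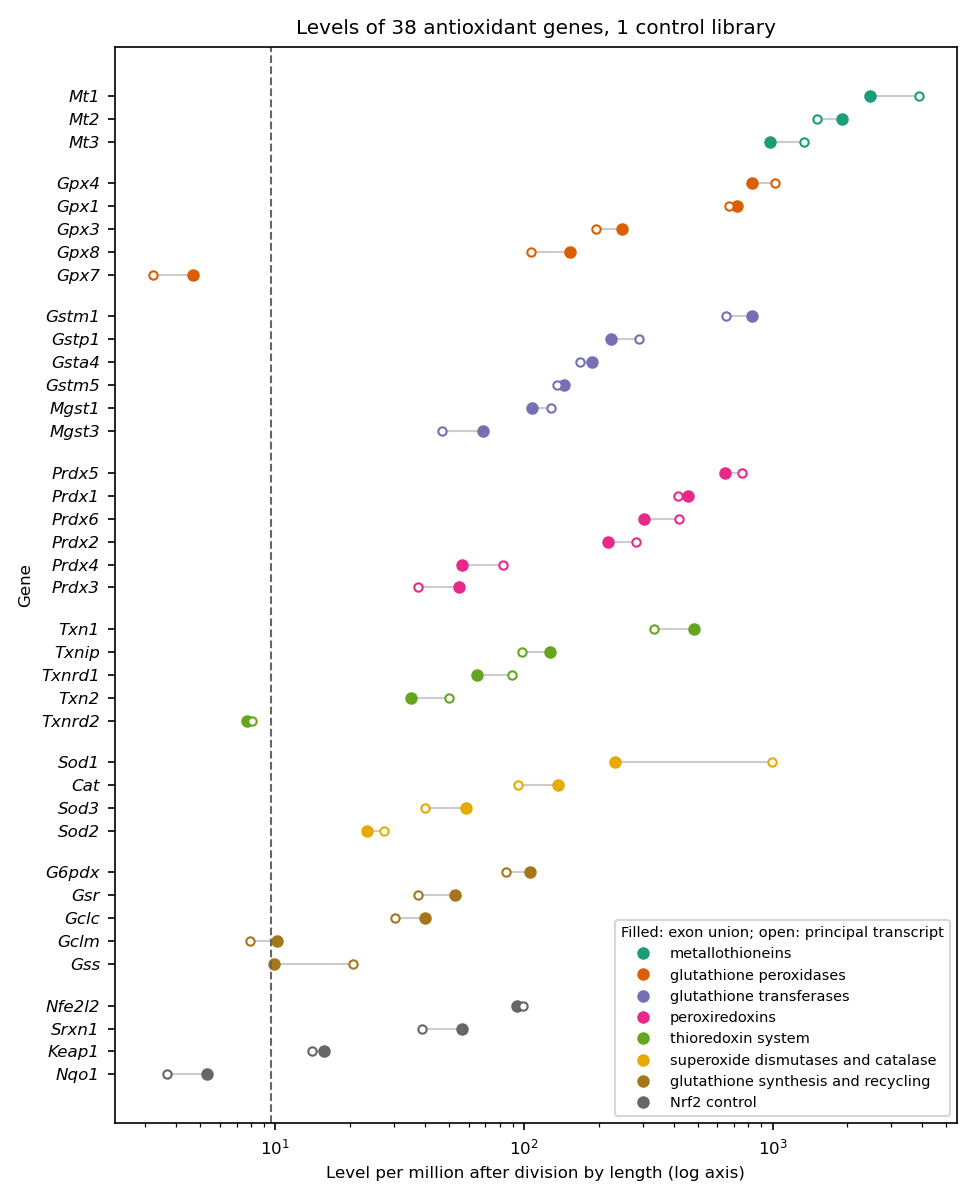
Levels on a log axis for the 38 genes, ordered by role. Filled points use the union of annotated exons as the length and open points the principal transcript, and the dashed line marks the median of detected rows. The metallothioneins lie at the top with levels of 977 to 2475, and Sod1 shows the widest gap between the filled and open points.

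Glutathione peroxidases reduce hydrogen peroxide or lipid peroxides with glutathione, and their summed level of 1957 was 16.1% of that of the 38 genes. Gpx4, the phospholipid hydroperoxidase that guards against ferroptosis, had a value of 15175 and a level of 829. Gpx1, the main cytosolic enzyme, had a value of 11024 and a level of 721. The level of Gpx4 was 1.15 times that of Gpx1 by exon union and 1.54 times by principal transcript. Among detected rows, Gpx4 stood at the 98.9 and Gpx1 at the 98.8 percentile. The secreted enzyme Gpx3 had a value of 4778 and a level of 248. The 2 genes of the endoplasmic reticulum, where peroxide arises from oxidative protein folding, were far apart. Gpx8 had a value of 1710 and a level of 154, whereas Gpx7 had a value of 64 and a level of 4.68, the lowest of the 38 genes. The level of Gpx8 was 32.9 times that of Gpx7 by exon union and 33.1 times by principal transcript. Gpx4 has 2 pseudogene copies without a row, 1 of which is 99.7% identical over 733 bases. How the authors' counting treated reads that fit both places is not given in the sources used here.

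Peroxiredoxins reduce peroxides through a reactive cysteine and are recharged mainly by thioredoxin. All 6 genes of the family were detected above the median level, and their summed level was 1732, or 14.2% of that of the 38 genes. In the deposited values, which are not divided by length, they held 25.0%, close to the metallothioneins at 25.8%. Prdx5, found in cytosol, mitochondria and peroxisomes, had a value of 14634 and a level of 645. Prdx1, the abundant cytosolic form, had a value of 14725 and a level of 456. Prdx6, which has a single reactive cysteine and draws on glutathione, had a value of 15456 and a level of 303. The values of these 3 genes were thus nearly equal, and the order of their levels was set by the length used. By principal transcript the ratio of Prdx1 to Prdx6 was 0.991. Prdx2, the other cytosolic form, had a value of 7024 and a level of 217. The forms bound to a compartment were lowest, with a level of 56.2 for Prdx4 of the endoplasmic reticulum, from a value of 1257, and 54.7 for Prdx3 of mitochondria, from a value of 858. The coding sequences of Prdx1 and Prdx2 were 69.9% identical, and no near-identical stretch joined the peroxiredoxins. Prdx1 has 2 pseudogene copies and Prdx2 has 1, none with a row. Prdx5 shares 19.1% of its exon length with Trmt112 on the opposite strand, whose value was 1612.

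Glutathione transferases had a summed level of 1562, or 12.8% of that of the 38 genes, and all 6 lay above the median of detected rows. Gstm1, a cytosolic mu-class enzyme, held 53.1% of it, with a value of 12955 and a level of 829. A pseudogene copy of Gstm1 without a row is 97.9% identical to it over 657 bases. Gstp1, the pi-class enzyme, had a value of 3677 and a level of 224. Its neighbour Gstp2 had a value of 2403 and is 98.7% identical to Gstp1 over 445 bases, so the split of reads between the 2 genes is uncertain. Gsta4, an alpha-class enzyme that clears the lipid peroxidation product 4-hydroxynonenal, had a value of 2520 and a level of 188. Gstm5, also of the mu class, had a value of 1971 and a level of 145. The level of Gstm1 was 5.70 times that of Gstm5, and their coding sequences were 71.6% identical. The membrane-bound enzymes Mgst1 and Mgst3 had levels of 108 and 68.3, from values of 2302 and 795. Gstm5 and Mgst1 changed places with the longest transcript as the length.

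In the thioredoxin system, most of the level was in thioredoxin itself. Txn1, the cytosolic thioredoxin, had a value of 5393 and a level of 484, which was 67.3% of the summed level of 719 of these 5 genes. Txnip, an arrestin-like protein that binds thioredoxin and restrains it, had a value of 4235 and a level of 128. Txnrd1, the cytosolic reductase that recharges thioredoxin with NADPH, had a value of 4863 and a level of 64.7. The values of these 3 genes were close, and their levels were apart because of the exon lengths of 1051 bases for Txn1, 3123 bases for Txnip and 7086 bases for Txnrd1. Mitochondria have their own pair, and both were lower. Txn2 had a value of 1577 and a level of 35.3, and Txnrd2 had a value of 358 and a level of 7.67, under the median of detected rows. The cytosolic level was 13.7 times the mitochondrial level for thioredoxin and 8.44 times for the reductase, and by principal transcript these ratios were 6.67 and 11.1. Txnip shares 19.4% of its exon length with the antisense gene Gm15441, whose value was 745. Txn1 has a pseudogene copy without a row, 95.8% identical over 309 bases.

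Among the superoxide dismutases, the cytosolic copper and zinc enzyme Sod1 had a value of 9826 and a level of 233. This level rests on an exon union of 3970 bases, while the principal transcript is 641 bases long, and with that length the level of Sod1 was 995. No other gene of the 38 moved as far between these lengths. Sod2, the mitochondrial manganese enzyme, had a value of 2479 and a level of 23.3. Sod3, the secreted enzyme, had a value of 2314 and a level of 58.3. The level of Sod1 was 9.99 times that of Sod2 by exon union and 36.2 times by principal transcript, and the ratio of the values was 3.96. Catalase, Cat, the peroxisomal enzyme that splits hydrogen peroxide, had a value of 3818 and a level of 138. Sod1 has a pseudogene copy without a row, 98.0% identical over 298 bases. Parts of the Sod2 transcript, 102 to 192 bases long, are at least 95% identical to parts of the transcripts of 12 other genes. Of these other genes, 8 had a row, and the value of Dld, 3167, was the highest.

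The genes that make and recharge glutathione had a low summed level beside the glutathione peroxidases and transferases. Their sum was 219, or 1.80% of that of the 38 genes. Single genes overlapped, as G6pdx at 106 lay above the transferase Mgst3 at 68.3, and all 5 lay above Gpx7 at 4.68. Gclc, the catalytic subunit of glutamate-cysteine ligase, which carries out the rate-limiting step, had a value of 1600 and a level of 40.0. Gclm, its modifier subunit, had a value of 679 and a level of 10.2. The level of Gclc was 3.94 times that of Gclm by exon union and 3.85 times by principal transcript. Gss, which adds glycine in the second step, had a value of 621 and a level of 9.89, just above the median of detected rows. With the principal transcript as length its level was 20.5, above that of Gclm at 7.88. Gsr, the reductase that recharges oxidised glutathione, had a value of 1547 and a level of 52.9. G6pdx, which feeds NADPH from the pentose phosphate pathway, was the highest of these 5 genes with a value of 3456 and a level of 106. G6pdx shares 13.6% of its exon length with Ikbkg on the opposite strand, whose value was 966.

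Nrf2 control genes held 1.41% of the summed level. Nfe2l2 had a value of 3790 and a level of 94.1, above 90.9% of detected rows. Keap1, the adaptor that sends Nrf2 for degradation, had a value of 782 and a level of 15.7. The level of Nfe2l2 was 5.99 times that of Keap1 by exon union and 7.08 times by principal transcript. Of the targets, Srxn1, the sulfiredoxin that repairs overoxidised peroxiredoxins, had a value of 1692 and a level of 56.5. Nqo1, a quinone reductase, had a value of 88 and a level of 5.34, above 37.0% of detected rows. The level of Srxn1 was 10.6 times that of Nqo1. Nrf2 is controlled mostly at the level of the protein, which was not measured.

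**Figure D3:**
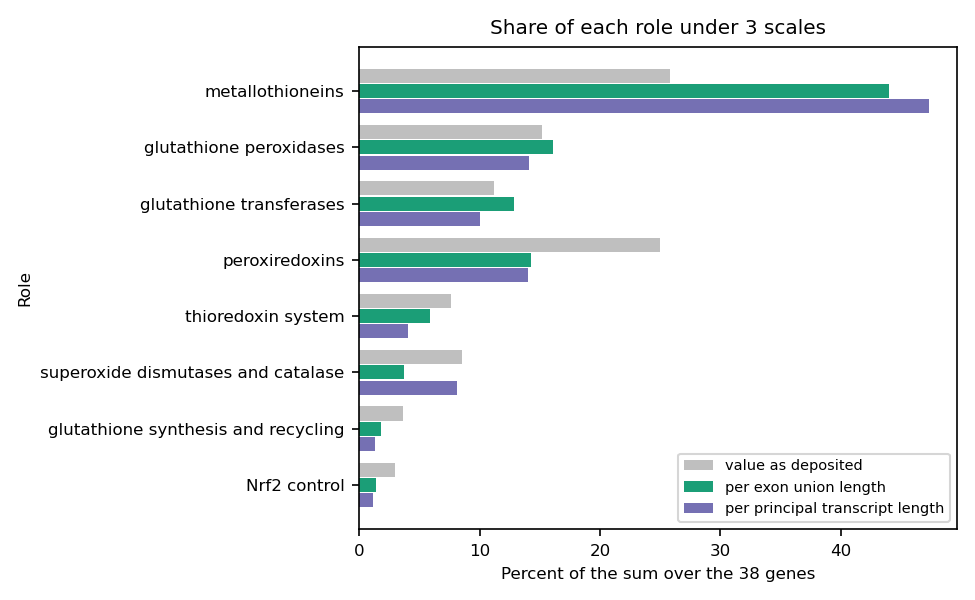
Bars give the percent of the sum over the 38 genes that each role held, for the values as deposited, for levels by exon union length and for levels by principal transcript length. Metallothioneins were highest on each of the 3 scales, with 25.8%, 44.0% and 47.3%, and peroxiredoxins were second in the deposited values with 25.0%.

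Each role had the same highest gene under the exon union, the longest transcript and the principal transcript. By location, 4 genes whose products act mainly in mitochondria, Prdx3, Sod2, Txn2 and Txnrd2, held 0.994% of the summed level of the 38 genes. The 3 genes of the endoplasmic reticulum, Gpx7, Gpx8 and Prdx4, held 1.76%, and the 2 secreted enzymes, Gpx3 and Sod3, held 2.52%. In the deposited values the mitochondrial genes held 2.44%. For thioredoxins, thioredoxin reductases and superoxide dismutases, the mitochondrial form was lower in level than the cytosolic form. Among the peroxiredoxins, Prdx3 was the lowest. Prdx5, which is found in mitochondria among other places, was the highest peroxiredoxin at a level of 645. It was not counted with the mitochondrial genes, so their share leaves out genes whose products act in several places.

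Lists of related genes outside the 38 give the setting. They held 95 genes, of which 89 were detected and 3 were listed at 0, and 61 lay above the median level of detected rows. Their median level was 17.5. The 38 genes and the lists were fixed with earlier results of these data known, so their contrast may in part follow from that choice. From each list the 3 highest genes, the lowest detected gene and those listed at 0 are named.

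**Figure D4:**
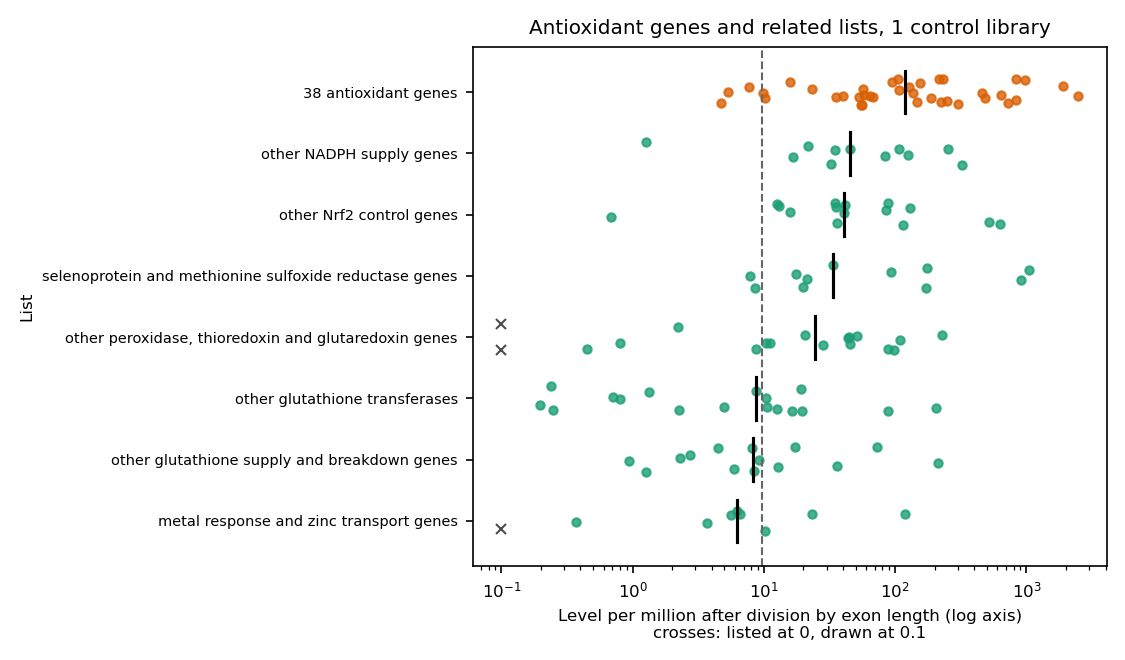
Each point is a gene, placed by its level after division by exon length on a log axis, for the 38 antioxidant genes and 7 related lists. Black bars are list medians, the dashed line is the median of detected rows, and crosses are genes listed at 0, drawn at 0.1. The median of the 38 genes, 118, lies above the list medians, which run from 6.26 to 45.1.

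Other genes around Nrf2 had a median level of 40.9, with 14 of 15 above the median of detected rows. Sqstm1, the autophagy adaptor p62 that binds Keap1, had a value of 22302 and a level of 626. Hmox1, the inducible heme oxygenase, had a value of 9658 and a level of 520, and Hmox2, the constitutive form, a level of 129. The lowest was the aldehyde dehydrogenase Aldh3a1, at a value of 14 and a level of 0.679. Hmox1 and Nqo1, both known as Nrf2 targets, lay at the 98.3 and 37.0 percentile of detected rows.

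Genes that supply NADPH besides G6pdx had a median level of 45.1, and 10 of 11 lay above the median of detected rows. Taldo1 and Tkt, the transaldolase and transketolase of the pentose phosphate pathway, had levels of 321 and 125. Idh2, the mitochondrial isocitrate dehydrogenase that makes NADPH, had a level of 251. The malic enzyme Me3 was lowest at 1.27.

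Genes for the supply, export and breakdown of glutathione had a median level of 8.31, and 5 of 14 lay above the median of detected rows. Slc3a2, the heavy chain shared by several amino acid exchangers, had a level of 211. Anpep, an aminopeptidase, had a level of 72.5 and Hagh, a glyoxalase, a level of 36.3. The gamma-glutamyl transferase Ggt1, which cleaves extracellular glutathione, was the lowest at 0.939. Slc7a11, named after its value was seen, is the light chain that pairs with Slc3a2 to import cystine, and had a value of 664 and a level of 4.49.

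Glutathione transferases outside the 38 genes had a median level of 8.78, and 8 of 17 lay above the median of detected rows. Gstp2, described above, had a level of 203, Gsto1, an omega-class enzyme, 88.7, and Gstm2, 19.6. The lowest detected was Gstt2 with a value of 11 and a level of 0.249. Other peroxidase, thioredoxin and glutaredoxin genes had a median level of 24.3, and 12 of 18 lay above the median of detected rows. Park7, which encodes the Parkinson disease protein DJ-1, had a level of 227, and the thioredoxin-domain genes Txndc17 and Txndc12 had levels of 108 and 98.0. The sestrin Sesn3 was the lowest detected at 0.796. Gpx2, known from gut epithelium, and Gpx6, known from olfactory epithelium, were listed at 0.

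Selenoprotein and methionine sulfoxide reductase genes had a median level of 33.8, and 9 of 11 lay above the median of detected rows. Selenow, listed in the table under its older symbol Sepw1, had a value of 8148 and a level of 1043. Selenop, listed as Sepp1, encodes the secreted selenium carrier and had a value of 27186 and a level of 901. These levels lay beside those of the selenoprotein genes Gpx4 and Gpx1 among the 38. Msrb1, a methionine sulfoxide reductase, had a level of 176, and Msra was the lowest at 7.81.

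The genes of the metal response and of zinc transport had lower levels than Mt1, Mt2 and Mt3. This list, which includes Mt4, had a median level of 6.26, and 3 of 9 lay above the median of detected rows. Mtf1, which drives Mt1 and Mt2, had a value of 592 and was itself at that list's median level of 6.26. It is named after its value was seen. The zinc importers Slc39a1 and Slc39a6 had levels of 119 and 23.4, and the zinc exporter Slc30a1 had a level of 10.2. The manganese exporter Slc30a10 was the lowest detected, with a value of 23 and a level of 0.371.

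The labels name the cells as glial cells, and markers of several cell types were present. Microglial markers were detected in 8 of 8 genes with a median level of 334 and a range of 40.1 to 2956. Astrocyte markers were detected in 8 of 8 with a median of 64.5 and a range of 13.4 to 385. The study reported that most cells of its VM-glial cultures were astrocytes and a smaller part microglia. Marker levels are therefore not read as cell shares. Mesenchymal markers were detected in 6 of 6 genes with a median level of 57.7, with Acta2 at 1137, and oligodendrocyte lineage markers in 6 of 6 with a median of 55.9. Neuronal markers were detected in 3 of 6 genes with a median level of 0.257, the dopamine neuron genes Th and Slc6a3 having values of 3 and 7, and endothelial markers in 3 of 5 with a median of 0.499. The library thus joins the RNA of several cell types, and the part of each in the levels of the 38 genes was not tested. With bulk RNA, fewer cells of a type and less RNA per cell cannot be told apart.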

How the data were processed

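Total RNA of the glia (Trizol) went into a SMARTER mRNA-seq library. By the study's account, reads were quality-trimmed, mapped to GRCm38/mm10 with STAR and counted on RefSeq exons with HTSeq-count. The submitters' processing notes list TopHat, edgeR and mm10 instead. The deposited values are whole numbers that the authors call normalised read counts, and are treated here as a score because of that name, and whether they equal raw counts was not tested. The methods also mention FPKM, which is divided by length. The values used here are whole numbers with a sum of 27569507 and were taken as not divided by length, on which every level rests. The normalisation behind them, the strand setting, treatment of multi-mapped reads and versions are not given in the sources used here. A normalisation acting differently on different genes would change ranks. The number of reads is unknown, so no interval or detection limit is given, and with 1 library no test was run.

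Levels were values divided by the exon union length of GENCODE M21 (GRCm38), scaled to 1000000 over the 22888 rows (98.3%) with a length. This annotation is not the one the authors counted on. A percentile is the percent of the 15478 detected rows with a length that were lower. All 38 genes are named, and of each related list the 3 highest, the lowest detected and those at 0. Members and lists were chosen with earlier results of these data known. The level threshold of 100, the principal transcript lengths, the gene pairs and the coding sequence features were chosen after values were seen. Protein features were replaced by those of GENCODE coding sequences. Copies were stretches of at least 100 bases with at least 95% identity (BLAST 2.17.0). Genes that overlap a member on the genome were not among them. Motifs were searched in RefSeq promoters. Simulated data were used to test the functions for exon union length, percentiles and motif search, and the length scaling as a separate calculation. The other steps were not tested in this way. Scripts used Python 3.11.15, numpy 2.4.6, pandas 2.3.3, Biopython 1.88 and matplotlib 3.10.9. Alternatives were other detection minima, lengths, pseudocounts and totals.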

Additional observations from a re-analysis of the deposited data

How the results depend on the processing

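With 1 library there is no spread between replicates, so a value was held to have moved when it changed by more than 1.5 times. Of 24 alternatives for the summary results, 23 stayed within that factor. The exception was the summed level of the 38 genes, which was 12171 and was 7825 without division by length, on a scale of 1000000 for all rows, as follows from the short exons of these genes. Some of the 23 could not have moved. The lowest value of the 38 genes was 64, so all 38 had to be detected at minima of 1 and 3. At a minimum of 100, 36 were detected. The median over all members with a row used the same 38 genes, and no count above the median could exceed 38. The number above the median of detected rows was 34 or 35, all 38 lay above the median of all rows with a length, and their median level was 98.8 to 118.

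The order of neighbouring genes within a role was less firm. Of 90 alternatives for their log2 level ratios, 67 stayed within the factor, 18 moved without changing sign and 5 changed sign. Gclm to Gss was 0.040 by exon union, -0.65 by longest transcript and -1.38 by principal transcript. Gstm5 to Mgst1 was 0.43 by exon union and -0.12 by longest transcript. Prdx1 to Prdx6 was 0.59 by exon union and -0.013 by principal transcript. Sod3 to Sod2 was 1.32, and -0.91 when the whole values of genes sharing a short near-identical stretch with Sod2 were added to it, which overstates any shared reads. The 23 copies found were the same in number with the principal transcript as the query, which, like the principal transcript lengths, was added after seeing the data. No replicate exists to set an error on any level, and the depth is unknown.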
